A study of Mus musculus with 2 samples.

Results

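The genes described here are 10 amino acid transporter genes of the mouse, Slc7a5, Slc3a2, Slc7a11, Slc1a5, Slc38a1, Slc38a2, Slc7a1, Slc1a4, Slc43a1 and Slc7a6. They were chosen by symbol, as a list that no measured value defines but that was drawn up with earlier results of these data known, and matched through their Ensembl gene identifiers. All 10 were found among the 43346 Ensembl entries of the gene tables, of which 21474 were protein-coding genes. The study sequenced polyadenylated RNA as single-end reads in 2 libraries of CH12.LX, a B cell lymphoma line of mouse strain B10.H-2aH-4bp/Wts that grows without limit in culture. The labels give the libraries as biological replicates 1 and 2, made from separate biosamples, and name no treatment, genotype or second line. Both therefore form 1 group, and each value below is a level in this line or a difference between its 2 libraries. CH12.LX is 1 lymphoma-derived line, which limits it as a model of normal B cells.

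Amino acids cross the plasma membrane through carriers of several solute carrier families. The Slc7 light chains that pair with the heavy chain Slc3a2, also called CD98, exchange an amino acid inside the cell for another outside. The Slc38 carriers bring in glutamine and small neutral amino acids together with sodium, and the cationic carriers bring in arginine and lysine. Activated and dividing lymphocytes are known to raise several of these carriers, and leucine and arginine taken up this way are sensed by the kinase complex mTORC1.

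Replicate 1 held 22996547 expected counts and replicate 2 held 25715408. All 6 fixed B cell markers were detected, at 1 TPM or more in both libraries, where TPM is a transcript's share of a library corrected for its length, with summed levels of 1323 TPM in replicate 1 and 1434 TPM in replicate 2. Markers of other lineages were low, though 2 of 5 T cell, 2 of 4 myeloid and 1 of 3 epithelial markers were also detected. No erythroid or stromal marker was. The 5 T cell markers summed to 3.03 and 4.16 TPM, the 4 myeloid markers to 4.13 and 3.33 TPM, and the 3 epithelial markers to 1.26 and 1.25 TPM. The 3 erythroid markers summed to 0.2 and 0.18 TPM and the 3 stromal markers to 0.4 and 0.45 TPM, and Bcl11b, Hbb-bs, Krt8 and Dcn had 0 counts in both. In such bulk libraries a smaller number of cells of a type and less RNA per cell cannot be told apart.

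Of the 10 transporter genes, 8 were detected (80.0%), against 48.0% of protein-coding genes (10317 of 21474). Their median level was 46.0 TPM, against 0.768 TPM for all protein-coding genes. The 10 genes summed to 725 TPM in replicate 1 and 818 TPM in replicate 2, a mean of 771 ± 65.6 TPM (SD, n = 2). Slc3a2, Slc7a5 and Slc1a5 held 73.9% of that sum in each library. The levels fell into 3 tiers. The CD98 heavy chain, its leucine-carrying partner and the glutamine exchanger Slc1a5 stood at 152 TPM or more in each library, 5 genes stood between 21.3 and 56.8 TPM, and Slc43a1 and Slc7a11 stayed below 1 TPM. The mean of Slc1a5 was 3.13-fold that of the next gene, Slc7a1, and the lower value of Slc1a4, 21.3 TPM, stood beside a higher value of 0.54 TPM for Slc43a1. Between neighbours in the order, the ranges of the 2 libraries overlapped for Slc3a2 and Slc7a5, for Slc7a1 and Slc38a2, for Slc38a2 and Slc38a1, and for Slc43a1 and Slc7a11, so these pairs were not separated. The other 5 neighbouring pairs did not overlap.

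**Figure D1:**
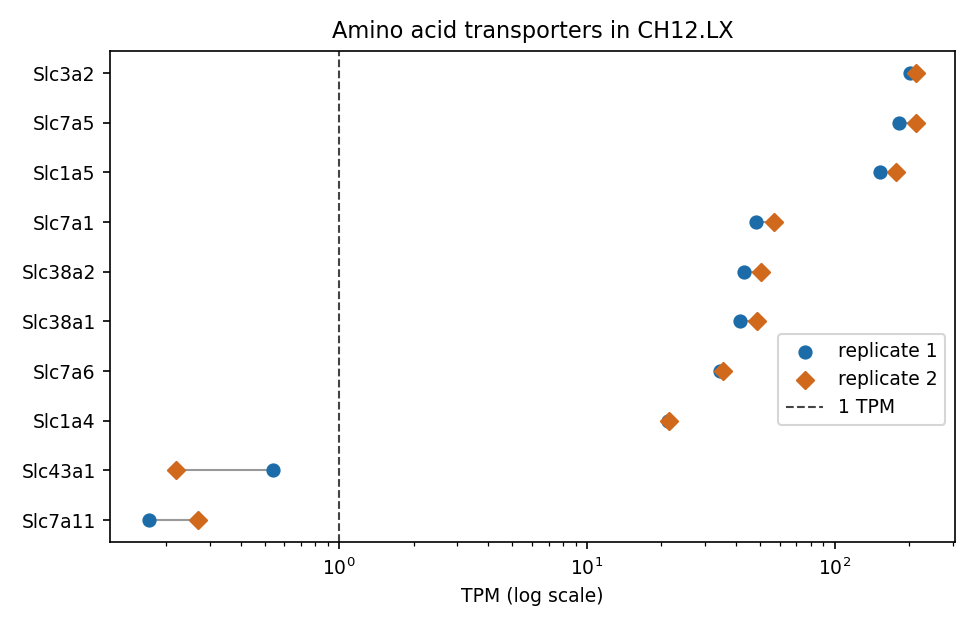
Level of each of the 10 transporter genes in TPM on a log axis, in replicate 1 (circles) and replicate 2 (diamonds), ordered from the highest mean at the top. The dashed line marks the detection threshold of 1 TPM, and 8 of the 10 genes lie to the right of it in both libraries.

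Slc3a2 encodes the CD98 heavy chain, which carries no amino acid itself and brings its light chains to the plasma membrane. The gene (ENSMUSG00000010095.9, chr19:8706882-8723369 on GRCm38, minus strand) stood at 202 TPM in replicate 1 and 214 TPM in replicate 2, from 8377 and 9862 counts. Its mean of 208 ± 8.51 TPM (SD, n = 2) was the highest of the 10 and lay at percentile 97.1 of protein-coding genes. The transcript Slc3a2-201 held 98.0% of its TPM in replicate 1 and 98.9% in replicate 2, and 96.1% of its 36-base words occurred in no other gene.

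Slc7a5 encodes LAT1, the light chain that takes up leucine and other large neutral amino acids in exchange for amino acids such as glutamine. The gene (ENSMUSG00000040010.10, chr8:121881150-121907694, minus strand) stood at 182 and 214 TPM in replicates 1 and 2, from 10292 and 13428 counts, the most counts of the 10. Replicate 1 was the lower library here, and its value also lay below both values of Slc3a2, whereas replicate 2 lay level with the heavy chain. The mean was 198 ± 22.6 TPM (SD, n = 2), at percentile 97.0. A gene on the opposite strand, Gm20388, overlaps Slc7a5 over 26545 bases and was listed at 21.0 and 16.1 TPM. That overlap is between the spans of the genes, and whether the counting used strand is not given in the sources used here. No 36-base word of Slc7a5 transcripts occurred in another gene of GENCODE M21 on either strand. The posterior SD of the Slc7a5 count was 0.0% in both libraries.

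Slc7a6 encodes y+LAT2, a light chain that exchanges cationic amino acids for neutral ones with sodium. It (ENSMUSG00000031904.4, chr8:106168857-106198706, plus strand) stood at 34.4 and 35.4 TPM, from 2082 and 2378 counts, a mean of 34.9 ± 0.665 TPM (SD, n = 2) at percentile 82.8. Its closest relative among the light chains, Slc7a7 or y+LAT1, was nearly as abundant at 29.3 and 32.0 TPM. The 2 ranges did not overlap, and Slc7a6 over Slc7a7 was 1.18 in replicate 1 and 1.11 in replicate 2. Their coding sequences were identical at 72.4% of the bases of the shorter one, the highest identity among 78 pairs compared between the 10 genes and 3 relatives, and the longest identical run was 20 bases. That run is shown in capitals with 10 bases on each side, from the coding sequences of GENCODE M21, because no pair shared a longer one.
Slc7a6: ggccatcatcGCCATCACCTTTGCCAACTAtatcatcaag
Slc7a7: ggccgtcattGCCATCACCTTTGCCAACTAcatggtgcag
No pair of the 78 shared a run of 36 bases or more, and all 36-base words of Slc7a5 and Slc7a6 transcripts occurred in no other gene. By the same alignment, genes of different families were identical at up to 60.7% of bases (Slc43a1 and Slc7a5). Such genes shared runs of up to 14 bases (Slc1a5 and Slc43a3).

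The light chains that can pair with Slc3a2 (Slc7a5, Slc7a6, Slc7a7, Slc7a8, Slc7a10 and Slc7a11) summed to 246 TPM in replicate 1 and 282 TPM in replicate 2. Their sum over Slc3a2 was 1.22 and 1.32, a mean of 1.27 ± 0.0698 (SD, n = 2), so light chain RNA stood somewhat above heavy chain RNA in each library. Slc7a5 held 74.0% and 76.0% of the light chain sum, Slc7a6 14.0% and 12.6%, and Slc7a7 11.9% and 11.3%. Slc7a5 alone over Slc3a2 was 0.903 and 1.0. Slc7a8, or LAT2, another carrier of neutral amino acids, had 6 and 7 counts and 0.09 and 0.1 TPM. Slc7a10, a carrier of small neutral amino acids, had 0 counts, where 3 counts would be 0.205 TPM in replicate 1 and 0.184 TPM in replicate 2. Its deposited posterior means were above that, at 0.61 and 0.56 TPM. These are ratios of RNA levels per length, and protein was not measured.

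**Figure D2:**
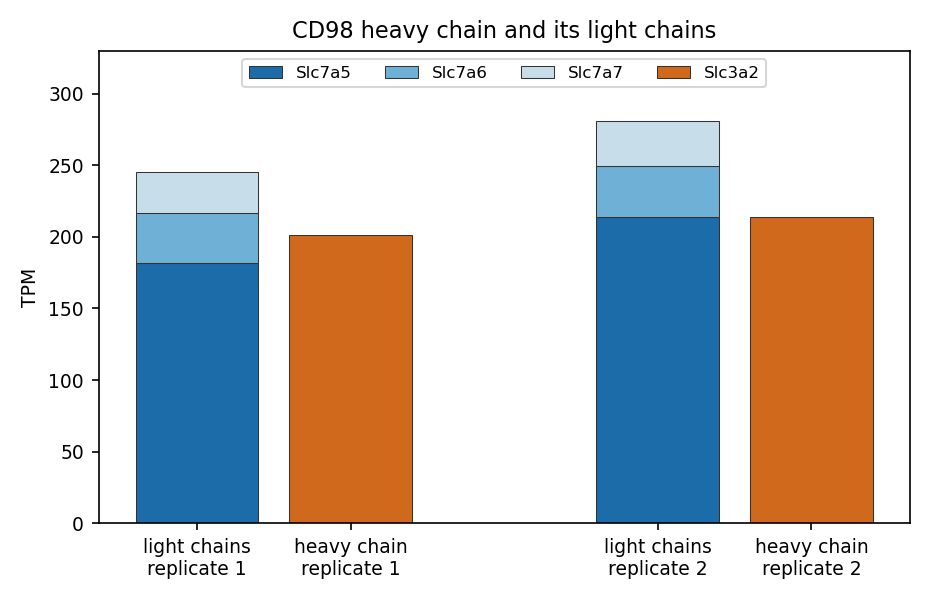
Stacked TPM of the 3 detected light chains beside the TPM of the heavy chain Slc3a2, for replicate 1 at left and replicate 2 at right. The light chain bars reach above the heavy chain bar in both libraries, and Slc7a5 fills 74.0% and 76.0% of the light chain sum.

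Slc7a11 encodes xCT, the light chain that imports cystine in exchange for glutamate. The gene (ENSMUSG00000027737.6, chr3:49892526-50443614, minus strand) was nearly silent, with 10.5 counts and 0.17 TPM in replicate 1 and 8.28 counts and 0.27 TPM in replicate 2. It held 0.0691% and 0.0959% of the light chain sum. The counts were higher in replicate 1 and the TPM higher in replicate 2, so the order of the libraries depended on the scale. The mean transcript length assumed for the gene was 3903 bases in replicate 1 and 1717 bases in replicate 2. The short noncoding transcript Slc7a11-203 of 481 bases was listed at 52.7% and 81.4% of the gene's TPM from 0.63 and 1.77 counts, whereas the coding transcript Slc7a11-201 of 9223 bases took 8.84 and 5.51 counts. Read assignment was uncertain, since the posterior SD reached 7.53% and 7.18% of the count, and 96.8% of its 36-base words occurred in no other gene. Gm37692, a processed pseudogene that lies within the gene on the same strand, was listed at 0.0 and 0.29 TPM. The posterior mean level of Slc7a11 was 0.405 TPM, still below 1 TPM.

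The start region of Slc7a11 is shown because it holds, as a palindromic pair, letters of the amino acid response element, the composite site that Atf4 and C/EBP factors are known to bind. Capitals mark each match to TGATGNAA on either strand in chr3:50443628-50443704 (RefSeq, GRCm38.p6), written on the gene's minus strand.
Slc7a11: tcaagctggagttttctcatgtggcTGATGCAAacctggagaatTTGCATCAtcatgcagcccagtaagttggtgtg
The matches lie at bases -66 to -59 and, on the other strand, at -47 to -40 from the start site. Of 32851 promoter windows of 300 bases, 1304 (3.97%) held at least 1 match and 23 (0.07%) held at least 2. Atf4 itself was the highest gene of the amino acid response list, at 249 TPM in replicate 1 and 262 TPM in replicate 2, beside the 0.17 and 0.27 TPM of Slc7a11. A match is a description of the letters, and binding was not measured.

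Slc7a1 encodes CAT1, the main carrier of arginine and lysine in many cells and the receptor of ecotropic murine leukaemia virus. The gene (ENSMUSG00000041313.10, chr5:148327410-148399904, minus strand) stood at 48.1 and 56.8 TPM in replicates 1 and 2, from 5624 and 7364 counts. Replicate 1 was lower, and the mean was 52.4 ± 6.12 TPM (SD, n = 2) at percentile 87.5. Nearly all of it, 100% and 99.8%, was on the transcript Slc7a1-201. Of its 4 relatives, 1 was detected. Slc7a3, or CAT3, a carrier known mainly from brain, stood at 29.4 and 33.5 TPM from 883 and 1097 counts. Slc7a1 over Slc7a3 was 1.63 and 1.69, and the ranges did not overlap. Slc7a4 had 0 counts in both libraries, where 3 counts would be 0.106 TPM in replicate 1 and 0.0958 TPM in replicate 2. Its posterior means were above that, at 0.42 and 0.38 TPM. Slc7a2 had 1 and 0 counts and Slc7a14 had 1 and 2. The coding sequences of Slc7a1 and Slc7a3 were identical at 65.2% of bases, against up to 60.7% between genes of different families. The longest run that Slc7a1 and Slc7a3 shared, of 16 bases, is shown in capitals, because the pair are the detected carriers of this cationic family. Bases outside the coding sequences were not part of that comparison.
Slc7a1: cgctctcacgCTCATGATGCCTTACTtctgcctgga
Slc7a3: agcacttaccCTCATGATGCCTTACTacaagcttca

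Slc1a5 encodes ASCT2, a sodium-dependent exchanger best known for glutamine uptake. The gene (ENSMUSG00000001918.13, chr7:16781340-16798274, plus strand) stood at 152 and 177 TPM in replicates 1 and 2, from 4390 and 5181 counts, with replicate 1 the lower. Its mean of 164 ± 17.6 TPM (SD, n = 2) lay at percentile 96.2. Slc1a4 encodes ASCT1, the related exchanger of alanine, serine, cysteine and threonine. It (ENSMUSG00000020142.8, chr11:20302180-20332713, minus strand) stood at 21.3 and 21.5 TPM from 1353 and 1506 counts, a mean of 21.4 ± 0.184 TPM (SD, n = 2) at percentile 76.2. Slc1a5 over Slc1a4 was 7.15 in replicate 1 and 8.22 in replicate 2. The pair was identical at 68.0% of coding bases, and its longest shared run, shown in capitals beside the run of Slc7a6 and Slc7a7 for its equal length, was also 20 bases.
Slc1a4: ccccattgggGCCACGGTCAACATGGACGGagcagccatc
Slc1a5: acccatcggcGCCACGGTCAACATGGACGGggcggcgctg
All 36-base words of both genes occurred in no other gene. The 5 glutamate transporters of the same family were low. Slc1a3, a glial glutamate transporter, was the only detected one, at 2.89 and 3.32 TPM, and Slc1a2 lay at the threshold with 1.21 and 0.98 TPM.

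Most Slc1a5 RNA was assigned to transcripts annotated as noncoding, in a split that rests on uncertain read assignment. The retained-intron transcript Slc1a5-202 led with 45.8% of the gene's TPM in replicate 1 and 32.0% in replicate 2, and with 71.9% and 55.1% of its counts. Slc1a5-201, the only protein-coding one of the 7 transcripts, held 10.7% and 17.8% of the TPM and 16.4% and 29.9% of the counts. The posterior SD of its count was 21.0% and 16.0%, so the split within the gene was less certain than the total, whose posterior SD was 0%. Slc1a5 was also the only one of the 8 detected genes led by a noncoding transcript. The processed transcript of 416 bases held 27.0% and 25.2% of the TPM and that of 613 bases held 9.7% and 17.0%, and their short length raises the TPM that a read is worth. Per GENCODE M21, Slc1a5-202 and Slc1a5-201 share 2736 bases, 97.5% of the former and 99.0% of the latter, so few bases tell them apart. The intron that Slc1a5-202 keeps there is 71 bases long. It is shown in capitals with 15 bases of exon on each side, chr7:16795938-16796038 on GRCm38, plus strand, because these bases are in the leading transcript and not in the coding one. That structure is the one of M21, in which the length of Slc1a5-201 differs from that in the deposited tables.
Slc1a5 intron: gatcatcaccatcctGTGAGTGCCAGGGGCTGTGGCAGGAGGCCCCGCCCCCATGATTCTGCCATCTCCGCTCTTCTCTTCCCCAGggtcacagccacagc
The intron begins with GT and ends with AG, the usual letters of a spliced intron.

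Slc1a4 was the only one of the 8 detected genes whose leading transcript changed between libraries. Slc1a4-202 was assigned 97.5% of the gene's TPM in replicate 1 and 20.2% in replicate 2, and Slc1a4-201 the remaining 2.53% and 79.8%. The total of the gene was nearly equal in the 2 libraries. The transcripts share 3872 bases, and Slc1a4-201 has no base that Slc1a4-202 lacks, while Slc1a4-202 has 54 more. Their annotated coding lengths are 1356 bases for Slc1a4-201 and 1596 bases for Slc1a4-202. The posterior mean values put Slc1a4-202 at 70.4% and 21.7%, and the posterior SD of its count was 26.7% and 40.3%. The shared bases make up 98.6% of Slc1a4-202, and whether the use of the transcripts differed between libraries was not tested.

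**Figure D3:**
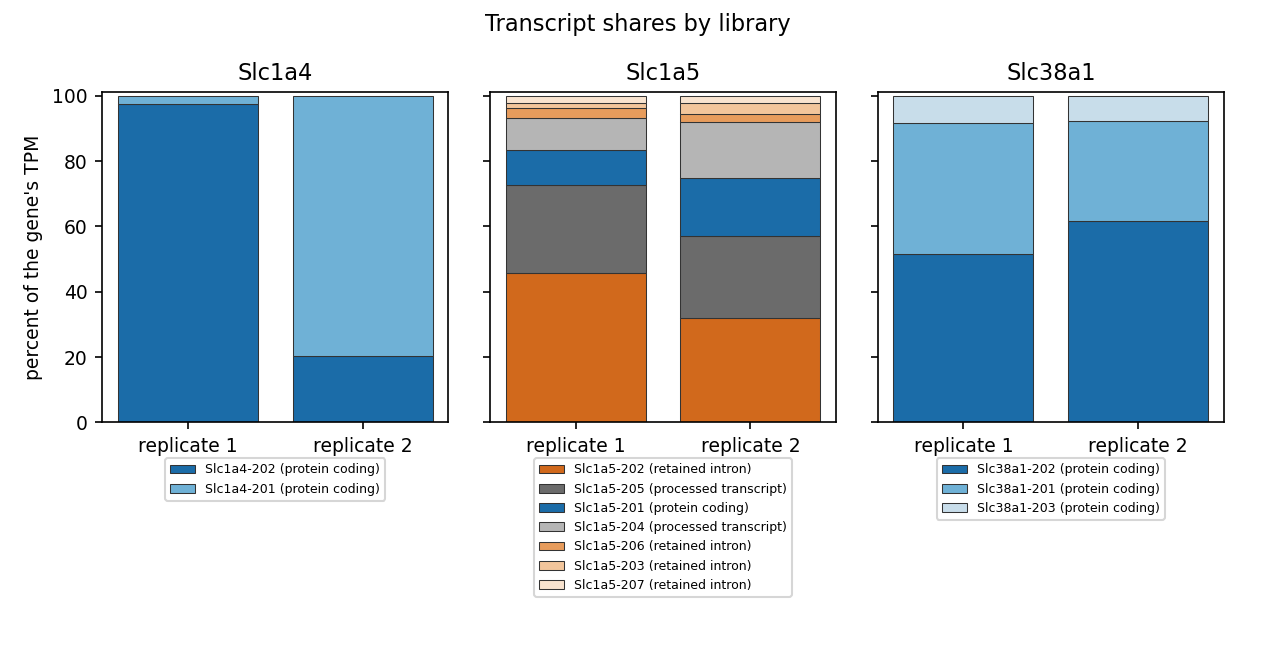
Percent of each gene's TPM on its annotated transcripts for Slc1a4, Slc1a5 and Slc38a1, with replicate 1 left of replicate 2 in each panel. Blue shades are protein-coding, orange shades retained-intron and grey shades processed transcripts. The leading transcript differs between the libraries for Slc1a4, and the coding share of Slc1a5 is 10.7% and 17.8%.

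Slc38a2 and Slc38a1 encode SNAT2 and SNAT1, sodium-coupled carriers of glutamine, alanine and other small neutral amino acids. Slc38a2, which is known to rise in cells short of amino acids, lies at chr15:96687392-96699730 (ENSMUSG00000022462.6, minus strand) and stood at 43.2 and 50.5 TPM from 3249 and 4218 counts. Slc38a1 (ENSMUSG00000023169.10, chr15:96571418-96642913, minus strand) stood at 41.5 and 48.5 TPM from 4869 and 6304 counts. The means were 46.9 ± 5.13 TPM for Slc38a2 and 45.0 ± 4.94 TPM for Slc38a1 (SD, n = 2 each), at percentiles 86.2 and 85.7. The genes are neighbours on the same strand, 44478 bases apart, and their ratio was 1.04 in each library. Each was lower in replicate 1, and their ranges overlapped. The next family gene along the chromosome, Slc38a4, lies 295089 bases from Slc38a2 and stood at 0.11 and 0.13 TPM. The 2 coding sequences were identical at 63.1% of bases, against up to 60.7% between genes of different families. The longest run that Slc38a1 and Slc38a2 shared, shown in capitals because these neighbours had nearly equal levels, was 17 bases.
Slc38a1: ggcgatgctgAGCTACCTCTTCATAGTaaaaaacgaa
Slc38a2: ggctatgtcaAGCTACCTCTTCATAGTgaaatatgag
All 36-base words of Slc38a2 were its own, against 94.1% of those of Slc38a1. Slc38a2 has 1 transcript in the tables. Slc38a1 was split over 3 protein-coding transcripts, with 51.5% and 61.6% of its TPM on Slc38a1-202, 40.1% and 30.6% on Slc38a1-201 and 8.44% and 7.84% on Slc38a1-203.

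Of the 9 other Slc38 genes, 4 were detected. Slc38a10 stood above both transporters at 64.5 TPM in replicate 1 and 55.0 TPM in replicate 2. Slc38a7, a lysosomal glutamine exporter, stood at 21.8 and 22.7 TPM, Slc38a6 at 5.25 and 5.11 TPM, and Slc38a9, the lysosomal arginine sensor, at 1.95 and 2.19 TPM. Slc38a5 and Slc38a11 had 0 counts in both libraries, where 3 counts a library would be 0.13 TPM or less of either. Posterior means were above that, at 0.27 and 0.25 TPM for Slc38a5 and 0.41 and 0.37 TPM for Slc38a11.

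Slc43a1 encodes LAT3, which lets large neutral amino acids through without exchange or sodium. The gene (ENSMUSG00000027075.12, chr2:84838850-84863594, plus strand) had 12 and 10 counts and was listed at 0.54 TPM in replicate 1 and 0.22 TPM in replicate 2. Replicate 1 was higher in TPM by 1.3 on the log2 scale and in counts by 0.38, and the assumed mean length was 1390 bases in replicate 1 against 2487 bases in replicate 2. Its shortest transcript, of 539 bases, took 2.5 counts and 56.3% of the TPM in replicate 1 and 0 counts in replicate 2. Its relatives were the more abundant. Slc43a3, which lies 72984 bases from Slc43a1 on the same strand and is known to carry purine nucleobases, stood at 108 and 128 TPM. Slc43a2, or LAT4, stood at 5.46 and 6.96 TPM, and Slc16a10, a carrier of aromatic amino acids, at 1.71 and 1.85 TPM. Slc43a2 over Slc43a1 was 10.1 in replicate 1 and 31.6 in replicate 2, ratios that rest on the 12 and 10 counts of Slc43a1.

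Across the 7 families, 43 other transporter genes were measured. Of these, 14 (32.6%) were detected, against 48.0% of protein-coding genes, and 11 had 0 counts in both libraries. The median level of the 43 was 0.07 TPM. Of the 7 other genes of the CD98 and rBAT family only Slc7a7 was detected, and Slc7a9, Slc7a10 and Slc7a12 had 0 counts. Of the 11 Slc6 genes 2 were detected, the taurine transporter Slc6a6 at 24.8 and 29.2 TPM and the glycine transporter Slc6a9 at 6.0 and 6.62 TPM. Slc6a7, Slc6a14, Slc6a15, Slc6a17 and Slc6a18 had 0 counts, where 3 counts a library would be 0.0738 TPM or less. Of these only Slc6a17 had posterior means above that, 0.75 TPM in replicate 1 and 0.68 TPM in replicate 2. Of the 4 proton-coupled Slc36 genes 2 were detected, Slc36a4 at 5.21 and 4.79 TPM and Slc36a1 at 3.29 and 3.69 TPM, and Slc36a3 stood at 0.96 and 1.08 TPM. Of these 43 genes, 20 had enough counts for the exact binomial test between libraries described below, and 4 of the 20 passed, each lower in replicate 1, against 30.6% of all genes tested and 14.6% lower in replicate 1. They were Slc43a3 and Slc6a6 (adjusted p = 8.78e-25 and 8.01e-10, exact binomial test) and Slc7a3 and Slc36a1 (adjusted p = 0.0257 and 0.024, exact binomial test).

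**Figure D4:**
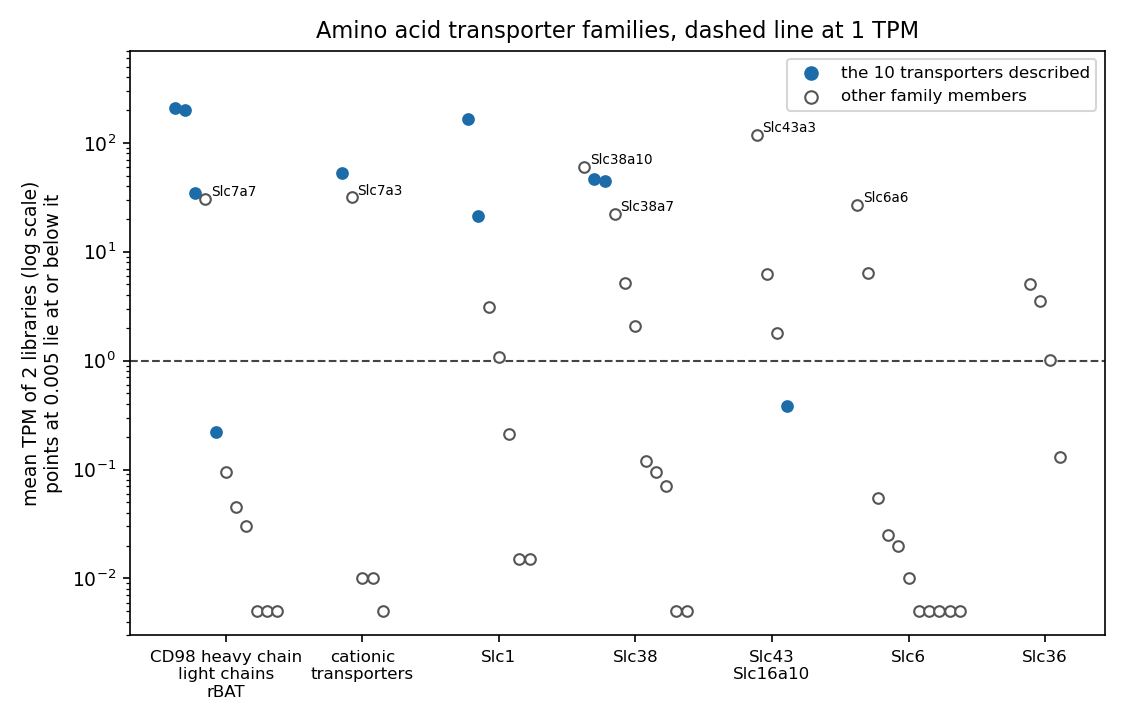
Mean TPM over the 2 libraries, on a log axis, of the 10 transporter genes (filled) and the 43 other genes of their families and of 2 further families (open), ordered by level within each family. The dashed line marks 1 TPM, and genes with 0.005 TPM or less are drawn at 0.005. Other genes above 10 TPM are named.

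The 2 libraries differed by more than counting error over the whole table, with a chi-square of 33.4 per gene over 15340 genes. The exact binomial test used below sets library against library rather than condition against condition, and counting error is the only error in it. Of the 10 transporter genes, 6 passed it with Benjamini-Hochberg adjustment over all genes, 6 lower and 0 higher in replicate 1, against 30.6% of all genes tested, 14.6% lower and 15.9% higher in replicate 1. The test passes small differences in abundant genes. Of the 4942 genes with 1000 counts or more on average, 54.4% passed and 28.0% were lower in replicate 1, and 8 of the 10 transporters, the 6 that passed among them, belong to that class. The median log2 ratio of replicate 1 over replicate 2 was -0.10 over the 10 genes and 0.0 over all genes tested.

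The differences were small in size. Over all genes tested the median absolute log2 ratio was 0.17, and 63.2% of genes lay within 0.25 in either direction. Beyond that median, Slc7a5, Slc7a1, Slc38a2 and Slc38a1 lay together at log2 ratios of -0.25, -0.25, -0.24 and -0.24. Their adjusted p in the exact binomial test was 1.68e-37 for Slc7a5, 1.41e-21 for Slc7a1, 1.7e-11 for Slc38a2 and 2.07e-16 for Slc38a1. Slc3a2 and Slc1a5 each lay at -0.10 (adjusted p = 3.34e-05 and 0.00284, exact binomial test). Slc7a6 at -0.05 and Slc1a4 at -0.02 did not pass (adjusted p = 0.39 and 0.881, exact binomial test). Slc43a1 at 0.38 and Slc7a11 at 0.45 did not pass either, with about 10 counts a library (adjusted p = 0.72 and 0.801, exact binomial test). In TPM, Slc1a5 differed by -0.22 rather than -0.10, with assumed mean lengths of 1803 bases in replicate 1 and 1648 bases in replicate 2. All 6 B cell markers also passed the exact binomial test as lower in replicate 1, with a median log2 ratio of -0.14. Beside them, 14.6% of all genes tested were lower, and 28.0% of those with 1000 counts or more on average. All markers but Pax5 belong to that class. The part of the markers in the transporter differences was not tested.

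**Figure D5:**
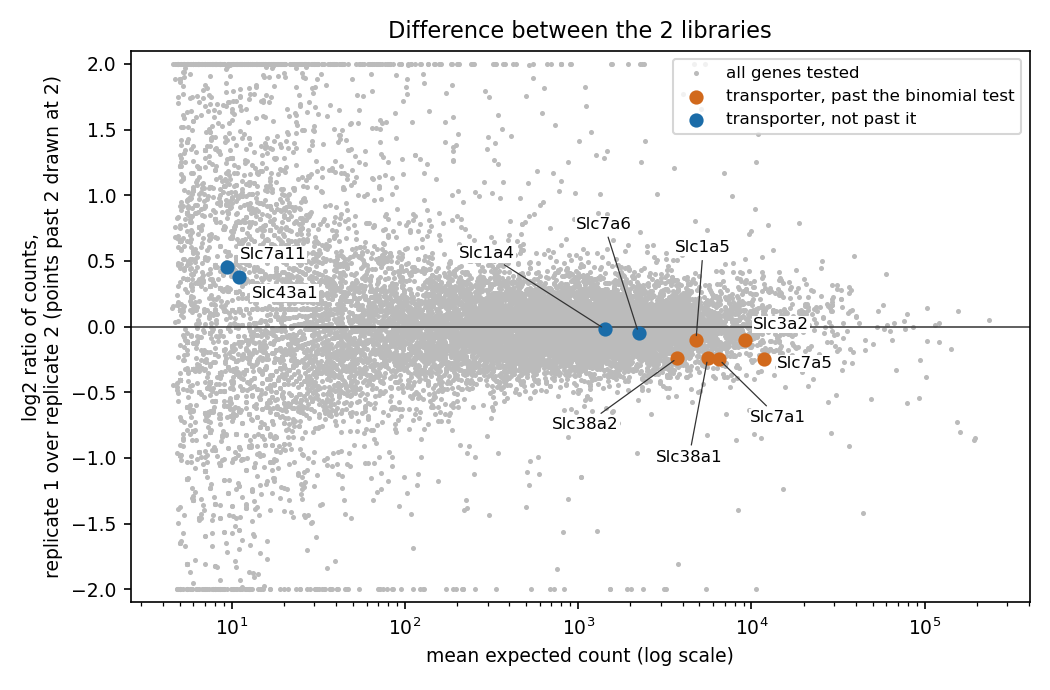
Log2 ratio of counts, replicate 1 over replicate 2, against the mean expected count on a log axis, for 15340 genes (grey) and the 10 transporter genes (coloured). Ratios beyond 2 in either direction are drawn at 2 or -2. The 6 transporters past the exact binomial test lie between -0.25 and -0.10, and Slc43a1 and Slc7a11 lie at the low-count end.

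Genes of amino acid sensing and mTORC1 were nearly all detected. Of 32 genes of amino acid sensing, mTORC1 and its regulation, 30 were detected, against 48.0% of protein-coding genes. Rragd and Fnip2 were not, and the median of the 32 was 20.2 TPM. The highest were Sec13, a subunit of the GATOR2 complex, at 122 TPM in replicate 1 and 107 TPM in replicate 2, and the Ragulator subunits Lamtor3 (111 and 99.3 TPM), Lamtor1 (95.7 and 78.6 TPM) and Lamtor5 (73.2 and 83.7 TPM). Between libraries 12 of the 32 genes tested passed the exact binomial test, 5 higher and 7 lower in replicate 1, beside 15.9% higher and 14.6% lower among all genes tested, and the median log2 ratio was -0.08. All 8 lysosomal amino acid and peptide transporters were detected, against 48.0% of protein-coding genes. The peptide and histidine transporter Slc15a3 led them at 168 and 161 TPM, far above Slc38a7, its relative Slc15a4 (19.3 and 21.1 TPM) and Mfsd12 (6.74 and 5.48 TPM). Of these 8 genes, all tested between libraries, 1 passed as lower and 1 as higher in replicate 1, beside 14.6% and 15.9% of all genes. Slc36a1 was the lower and Mfsd12 the higher (adjusted p = 0.024 and 0.0186, exact binomial test). Mfsd12 is known to bring cysteine into the lysosome.

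In the amino acid response the kinase Eif2ak4 senses uncharged tRNA and leads to translation of Atf4. Of 18 genes of this response, with a median of 19.6 TPM, 14 were detected, against 48.0% of protein-coding genes. After Atf4, the highest were the initiation factor subunit Eif2s1 (104 and 108 TPM in replicates 1 and 2), Atf5 (65.2 and 60.4 TPM) and Gcn1, the partner of Eif2ak4 (46.0 and 51.9 TPM). The genes not detected were Asns, Cebpb, Vldlr and Stc2. Asns, the asparagine synthetase and a classical Atf4 target, had 1 and 2 counts, and the transcription factor Cebpb stood at 0.05 and 0.18 TPM. Vldlr and Stc2 had 0 counts in both libraries, where 3 counts a library would be 0.0995 TPM or less of either. The posterior means of each were above that, at 0.41 TPM in replicate 1 and 0.37 TPM in replicate 2. Some other known targets were present where Asns and Slc7a11 were nearly absent, though Vldlr and Stc2 of the same list had 0 counts. Trib3, Chac1, Ddit4 and Ddit3, chosen after their values were seen, averaged 18.4 ± 0.127, 25.2 ± 0.884, 28.5 ± 0.721 and 18.8 ± 3.21 TPM (SD, n = 2 each). Of 14 genes of the list tested between libraries, 2 passed the exact binomial test as higher and 4 as lower in replicate 1, beside the same 15.9% and 14.6% of all genes, with a median log2 ratio of -0.07.

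Of 17 enzymes that use the transported amino acids, with a median of 38.8 TPM, 14 were detected, against 48.0% of protein-coding genes. The highest were the arginine synthesis enzyme Ass1 (163 TPM in replicate 1 and 156 TPM in replicate 2), Cth, which makes cysteine from cystathionine (143 and 138 TPM), and the branched-chain aminotransferase Bcat1 (121 and 128 TPM). Glud1, the glutamate dehydrogenase, followed at 104 and 104 TPM. The arginases Arg1 and Arg2 were among those not detected, at 0.21 and 0.11 TPM and at 0.04 and 0.08 TPM. Of 15 enzymes tested between libraries, 1 passed the exact binomial test as higher and 4 as lower in replicate 1, beside 15.9% and 14.6% of all genes, with a median log2 ratio of -0.04. All 7 transcription factors listed as known to act on these transporter genes were detected, against 48.0% of protein-coding genes. They were led by Atf4, Myc (131 and 131 TPM), Max (78.3 and 89.4 TPM) and Nfe2l2 (27.5 and 24.0 TPM). Of these 7, Nfe2l2 passed the exact binomial test as higher in replicate 1 and Atf4, Max and Hif1a passed as lower, beside 15.9% and 14.6% of all genes, with a median log2 ratio of -0.09.

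The promoter windows were searched for the letters of 3 of these factors. RefSeq windows of 250 bases before and 50 after the start site were matched for 7 of the 10 genes, 9 windows in all. Slc7a5, Slc1a5 and Slc38a1 had none in the table. The Atf4 composite site TGATGNAA was found in the windows of Slc7a11 and Slc1a4. In Slc1a4 it lies across the start site, at bases -4 to 4, and chr11:20332710-20332737 on the minus strand is shown with the match in capitals, which reads TGATGCAA on the other strand.
Slc1a4: cctccagcgtgcctcctgcgTTGCATCA
Myc and Max are known to bind CACGTG, which 7.15% of all windows hold on either strand and which was found in Slc43a1 alone, at -64 to -59. The antioxidant response letters TGACNNNGC, bound by Nfe2l2, were found in Slc43a1, Slc7a1, Slc7a6 and Slc38a2, against 12.4% of all windows. No overlap between matches of different motifs occurred in these windows. With 7 genes these counts are descriptions, and letters outside the windows were not searched.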

How the data were processed

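Per the file headers, each library has a gene table and a transcript table, which the deposited notes give as made from transcriptome alignments on mm10 with GENCODE M4. Which aligner and quantification tool were used is not given in the sources used here. Expected counts, as the authors deposited them, estimate the reads of each gene and share out reads that match several genes. The authors' TPM and FPKM values are corrected for length and scaled to each library. Per the file headers, a further column gives each transcript's percent of its gene, and the deposited posterior means, with a posterior SD used here as a score of uncertain assignment, are a second estimate of counts and TPM. Because TPM is shared by all entries, very abundant transcripts lower all others.

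Gene names, positions and transcript structures came from GENCODE M21 on GRCm38, the assembly of mm10, and 42462 of 43346 Ensembl entries matched. Another 26248 entries are named by a number alone. They took 0.0426% and 0.0539% of the counts in replicates 1 and 2 and were left out of library sizes and tests, like the 97 spike-in entries, which had 0 counts.

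Levels are TPM with the mean ± SD over n = 2. Expected counts were rounded, and the 15340 genes whose 2 counts summed to at least 10 entered an exact binomial test, two-sided, against TMM effective library sizes (edgeR 4.0.16, R 4.3.3, scipy 1.17.1), with Benjamini-Hochberg adjustment over all of them at 0.05. The log2 ratio is replicate 1 over replicate 2 with a pseudocount of 0.5. A count of 0 was set beside the TPM of 3 counts a library at the length assumed for the gene. That floor covers counting error only, because no molecular identifiers are stated and reads are then not independent molecules. It is not an upper limit, and the posterior mean TPM of several genes with 0 counts lay above it. Coding sequences from GENCODE M21 were aligned over their whole length, and identity is the share of bases of the shorter one. A comparison of proteins was planned and not run.

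All 10 transporter genes are named, and of each of 12 other lists the up to 4 genes highest by mean TPM, those with 0 counts and all light chains of Slc3a2. Slc38a4, Gm20388, Gm37692, Rragd, Fnip2, Asns, Cebpb, Arg1, Arg2, Trib3, Chac1, Ddit4, Ddit3 and Hif1a were named beyond that rule after their values were seen. The members and lists were chosen with earlier results of these data known. Of 155 list symbols 155 were matched, Slc66a1 and Gcn1 through older names. Alternatives covered the detection threshold, FPKM, the posterior estimates, the scaling with DESeq2 1.42.0 size factors or library totals, the count filter, the pseudocount and each library left out.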

Additional observations from a re-analysis of the deposited data

How the results depend on the processing

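Under every alternative tried, 8 of the 10 transporter genes were detected, with thresholds of 0.5 or 5 TPM or 1 FPKM, with posterior means and in either library alone. With DESeq2 size factors, library totals, no count filter and posterior mean counts, 6 transporter genes again passed the exact binomial test. All were lower in replicate 1. The calls over all genes ranged from 4482 to 4691. In that order of settings they made up 30.5%, 30.5%, 20.2% and 29.7% of genes tested, beside 30.6% in the main setting. Of the calls, 53.1%, 59.5%, 52.9% and 51.9% were higher in replicate 1. Leaving out a library gives no value for that test. The light chain sum over Slc3a2 was 1.28 with posterior means, 1.27 in FPKM, and 1.22 to 1.32 in either library alone. The sum of the 10 genes was 727 TPM with posterior means, 787 TPM over Ensembl entries alone, and 725 to 818 TPM in either library alone. Single levels moved by more than their SD in 6 cases. With posterior means, Slc3a2 stood at 195 TPM, Slc7a6 at 32.8, Slc1a4 at 20.2 and Slc7a11 at 0.405, and over Ensembl entries alone Slc7a6 stood at 35.6 and Slc1a4 at 21.8. Leaving out the numbered entries, which held 18255 and 22456 TPM in replicates 1 and 2, raises every level by construction. With posterior means all 8 detected genes stood lower, also those that stayed within their SD, such as Slc7a5 (187 against 198 TPM) and Slc1a5 (155 against 164 TPM). Slc43a1 and Slc7a11 stood higher. The cause of these shifts with posterior means was not tested. No paired analysis was possible because both libraries belong to 1 group. Slc43a1 and Slc7a11, at about 10 counts a library, did not pass the test. Their log2 ratios, 0.38 and 0.45, were the largest in size of the 10 genes. The transcript shares of Slc1a4 and Slc1a5 rest on uncertain read assignment.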
